A study of Mus musculus with 19 samples.

Results

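Hearts of mice given isoproterenol and minocycline together were compared with hearts of saline control mice, and each change was set beside the change under isoproterenol alone. The comparison used 13 of the 19 small RNA libraries of the series, 6 control and 7 both-drug libraries, and the other 6 (isoproterenol alone) served as the reference for what persisted. Control and both-drug libraries stand in separate deposited tables that share the isoproterenol libraries, so entries were joined by name, and 571 entries present in both tables of 641 in either were kept. Of these, 371 had enough reads to be tested (350 mature microRNAs, 10 from other parts of known precursors and 11 predicted microRNAs), and 200 were not tested.

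All mice were male, wild-type C57BL6/J animals aged 12 weeks, studied after 21 days. Control mice carried an osmotic minipump with sterile saline. The isoproterenol mice carried a pump delivering 30 mg/kg of the drug per day, and the both-drug mice had that pump and a daily intraperitoneal injection of 50 mg/kg of minocycline. The labels name no vehicle injection for mice without minocycline and no group given minocycline alone, so the effect of injection and of minocycline by itself cannot be told apart from that of the combination. Each library is the whole heart of 1 mouse, named here by the animal number in the labels, and p-values measure the spread between these mice.

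Isoproterenol is a beta-adrenergic agonist whose continuous infusion drives hypertrophy and fibrosis of the rodent heart, and minocycline is a tetracycline antibiotic with anti-inflammatory actions. MicroRNAs are short RNAs cut from hairpin precursors, usually leaving 1 abundant strand from the 5′ or 3′ arm, and they repress messenger RNAs that pair with the seed near their 5′ end. In the heart, miR-1, miR-133a, miR-208a and miR-499 mark cardiomyocytes, miR-21 and the miR-199/miR-214 cluster are abundant in fibroblasts, and miR-146, miR-155, miR-150 and miR-223 are best known from immune cells.

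The sequences of the microRNAs on which the results turn are given from RefSeq (build GRCm38.p6), which held 441 of the 511 joined mature entries by name. Each is written 5′ to 3′ with the seed, bases 2 to 8, in capitals. The first set rose with both drugs, and in it miR-132-3p and miR-212-3p share the seed AACAGUC.
miR-21a-5p: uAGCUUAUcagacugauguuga
miR-199a-5p: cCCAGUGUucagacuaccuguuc
miR-132-3p: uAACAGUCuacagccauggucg
miR-212-3p: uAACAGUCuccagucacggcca
miR-212-5p: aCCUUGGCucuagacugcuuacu
miR-224-5p: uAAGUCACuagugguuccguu
miR-455-5p: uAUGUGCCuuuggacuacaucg
miR-434-3p: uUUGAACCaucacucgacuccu
miR-409-5p: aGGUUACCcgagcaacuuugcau
miR-541-5p: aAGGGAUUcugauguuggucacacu
miR-127-3p: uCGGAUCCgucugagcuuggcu

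The next set fell with both drugs and spans muscle, immune and epithelial microRNAs.
miR-499-5p: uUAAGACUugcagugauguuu
miR-107-3p: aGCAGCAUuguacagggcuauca
miR-181b-5p: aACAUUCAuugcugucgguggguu
miR-155-5p: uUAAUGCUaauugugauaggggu
miR-200c-3p: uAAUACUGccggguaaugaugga
miR-335-3p: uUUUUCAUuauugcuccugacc

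The last pair shares the seed GAGAACU, and its members moved in opposite directions with both drugs.
miR-146a-5p: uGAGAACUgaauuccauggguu
miR-146b-5p: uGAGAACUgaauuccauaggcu

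Several of these lie inside host genes on the same strand in the GENCODE annotation of that build. MiR-21a-5p (chr11:86584120-86584141, minus strand) lies in an exon of Vmp1, and miR-155-5p (chr16:84714143-84714165, plus strand) in an exon of its own host transcript Mir155hg. Intronic members were miR-499-5p in Myh7b (chr2:155622893-155622913, plus), miR-107-3p in Pank1 (chr19:34820700-34820722, minus) and miR-335-3p in the imprinted gene Mest (chr6:30741354-30741375, plus). MiR-224-5p in Gabre (chrX:72261085-72261105, minus) and miR-455-5p in the collagen gene Col27a1 (chr4:63256867-63256888, plus) were intronic too. The miR-132 and miR-212 hairpins lie side by side (miR-132-3p at chr11:75173723-75173744, miR-212-3p at chr11:75173443-75173464, plus). MiR-146a-5p (chr11:43374435-43374456, minus) and miR-146b-5p (chr19:46342790-46342811, plus) come from different chromosomes, the latter from an intron of Mfsd13a.

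Control libraries held 4188745 to 5614794 reads in joined entries. Isoproterenol libraries held 4230053 to 6107141 and both-drug libraries 3166744 to 6548803. Values below are scaled reads, that is, reads divided by 1 factor per library. The share of reads from miR-1a-3p was 42.8% ± 6.73 over the 6 saline hearts (mean and SD), which spread from 35.8% to 50.6%, and 37.8% ± 2.38 over the 7 both-drug hearts. Defining cardiomyocyte microRNAs were among the most abundant entries, and miR-206-3p of skeletal muscle stayed at or below 15.8 scaled reads.

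With both drugs, 38 of 371 entries were higher than in control hearts (10.2%) and 28 were lower (7.55%), together 17.8%, by limma with Benjamini-Hochberg adjustment at an adjusted p below 0.05. Of the 38 rises, 23 exceeded 1.5-fold and 11 exceeded 2-fold, against 4 and 2 of the 28 falls. Without the 6 rises that had a control mean below 10 scaled reads or a control library at 0, whose fold depends on the added count, 17 of 32 exceeded 1.5-fold and 5 exceeded 2-fold. Over all 38 rises and all 28 falls the median log2 fold changes were 0.64 and -0.39, where the median over all 371 entries was 0.03. The 2 groups did not overlap in any library for 32 entries (8.63%). This split depends on the scaling. Dividing by total reads instead moved the median of all entries up by 0.197 on the log2 scale and gave 73 higher and 3 lower (96.1% of calls higher, against 57.6%). Directions below are therefore relative to the bulk of the entries. Of the 38 rises, 37 were still called that way, as were 3 of the 28 falls.

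**Figure D1:**
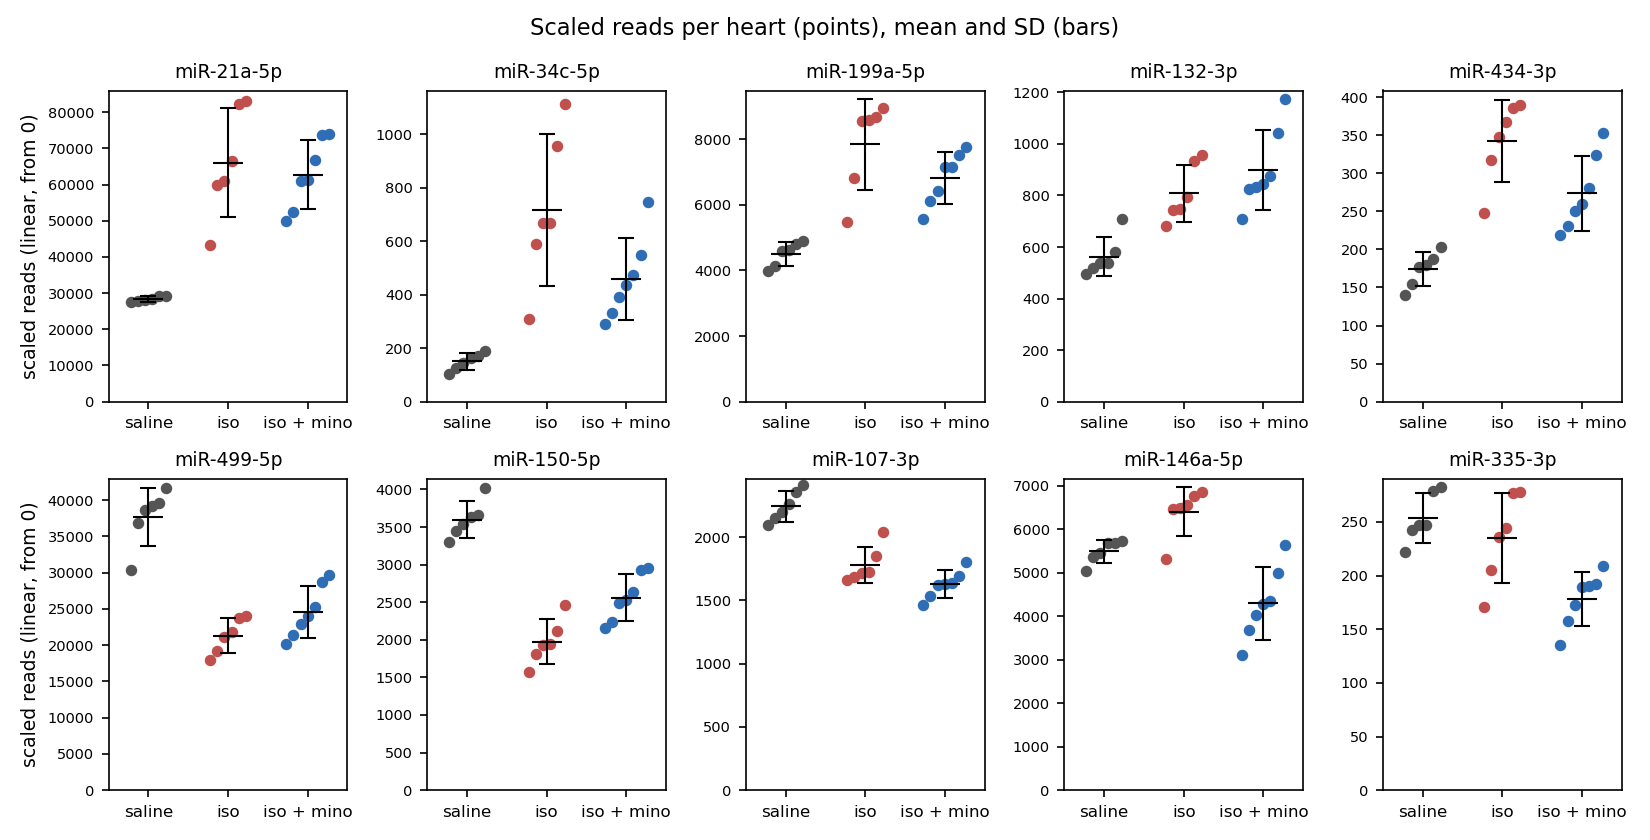
Scaled reads (vertical axes, linear from 0) of 10 microRNAs in every heart with saline, isoproterenol (iso) or isoproterenol plus minocycline (iso + mino); points are hearts, bars the mean and SD (n = 6, 6 and 7). MiR-21a-5p lies between 27462 and 29288 in controls and between 50004 and 74083 with both drugs, and miR-146a-5p is the member that is higher with isoproterenol and lower with both drugs.

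MiR-21a-5p had the smallest adjusted p of all rises. This microRNA, which is induced in stressed myocardium and acts in fibroblast survival, was held in a narrow band in controls, 27462 to 29288 scaled reads (median 28155), and reached 50004 to 74083 (median 61276) with both drugs. Every both-drug heart lay above every control heart, a 2.19-fold rise (log2 1.13 ± 0.09 SE, adjusted p = 5.2e-07 by limma). Isoproterenol hearts held 43306 to 83219 (log2 1.19 ± 0.13), and both drugs differed from isoproterenol by -0.06 ± 0.14. The passenger strand miR-21a-3p was far rarer and rose as well, from 0 to 21.0 scaled reads in controls to 23.0 to 46.7, though its adjusted p of 0.025 went to 0.051 without both-drug animal 953 (log2 2.38).

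MiR-199a-5p, from hairpins of which 1 lies in the long noncoding RNA Dnm3os, held 3980 to 4892 scaled reads in controls (median 4612) and 5574 to 7754 with both drugs (median 7142), with no overlap. Its log2 fold change was 0.59 ± 0.08 (adjusted p = 0.00027), against 0.78 ± 0.11 with isoproterenol alone. MiR-199b-3p rose by 0.42 ± 0.07 (adjusted p = 0.00073), again without overlap. The neighbouring miR-214-3p did not pass: its controls spread from 631 to 1197 and both-drug hearts from 670 to 1510 (log2 0.53 ± 0.20, adjusted p = 0.078). Over the list of 5 tested fibroblast markers (miR-199 and miR-214), 2 rose (40%, against 10.2% of all entries) and none fell, with a median of 0.53. Their summed level was 13957 to 15306 scaled reads in controls and 16588 to 22586 with both drugs. The count of 2 became 4 without control animal 949 or both-drug animal 942, and 5 with total-read scaling. In a whole-heart library, fewer or more cells of a type and less or more RNA per cell cannot be told apart.

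Both arms of the miR-132/miR-212 pair rose, and this was the only cluster with at least 4 tested entries in which every tested entry was called. These microRNAs are known to promote hypertrophic growth and arise from 1 transcript. MiR-132-3p held 494 to 708 scaled reads in controls (median 538) and 710 to 1173 with both drugs (median 844), a log2 fold change of 0.67 ± 0.12 (adjusted p = 0.00095). MiR-212-3p, with the same seed, changed by 0.73 ± 0.14, miR-212-5p by 1.04 ± 0.16 and miR-132-5p by 0.94 ± 0.14. In each of the 4, control and both-drug hearts did not overlap. The cluster's mean log2 level relative to controls was 0.845 ± 0.103 under both drugs (mean and SD, n = 7) and 0.856 ± 0.109 under isoproterenol (n = 6).

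The miR-34b/34c cluster, whose members are targets of the p53 transcription factor, rose in all 3 tested entries, of which miR-34c-5p was the only one with controls well above the read minimum. MiR-34c-5p held 105 to 190 scaled reads in controls (median 155) and 290 to 747 with both drugs (median 436), a 2.97-fold rise (log2 1.57 ± 0.20, adjusted p = 0.00015). With isoproterenol alone it reached 310 to 1112, and both drugs lay 0.60 ± 0.27 below isoproterenol on the log2 scale (unadjusted p = 0.041, adjusted p = 0.38). MiR-34b-5p held 3.3 to 10.3 scaled reads in controls and 10.48 to 27.23 with both drugs (adjusted p = 0.0034), and miR-34b-3p 0 to 9.3 and 6.8 to 31.1 (adjusted p = 0.0075). The fitted change of miR-34b-3p, 2.86 on the log2 scale, was the largest of any call and rests on controls at or near 0. It ran from 1.68 with an added count of 5 to 3.36 with an added count of 0.5. The separately encoded miR-34a-5p, which has the same family name, changed by -0.16 ± 0.10 (adjusted p = 0.28).

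Of other risers with separated groups, miR-224-5p changed by 1.01 ± 0.14 (138 to 211 scaled reads against 220 to 415), and miR-455-5p by 0.53 ± 0.09 (109 to 135 against 159 to 206). MiR-31-5p changed by 0.59 ± 0.13, and the hypoxia-responsive miR-210-3p by 0.31 ± 0.08 (965 to 1346 against 1360 to 1635). The hairpin of miR-455 gave a called 3′ arm as well (0.46 ± 0.13), and miR-511-3p, which is made in macrophages and lies within the mannose receptor gene, rose by 0.82 ± 0.18. Over the 17 tested entries of the fibroblast activation list, which holds many of the members above, 9 rose (52.9%, against 10.2% of all entries). Of the same 17, 1 (miR-155-5p) fell (5.9%, against 7.55%), and the median was 0.53 against 0.03 over all entries. The list repeats members named above and is no separate support for them.

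**Figure D2:**
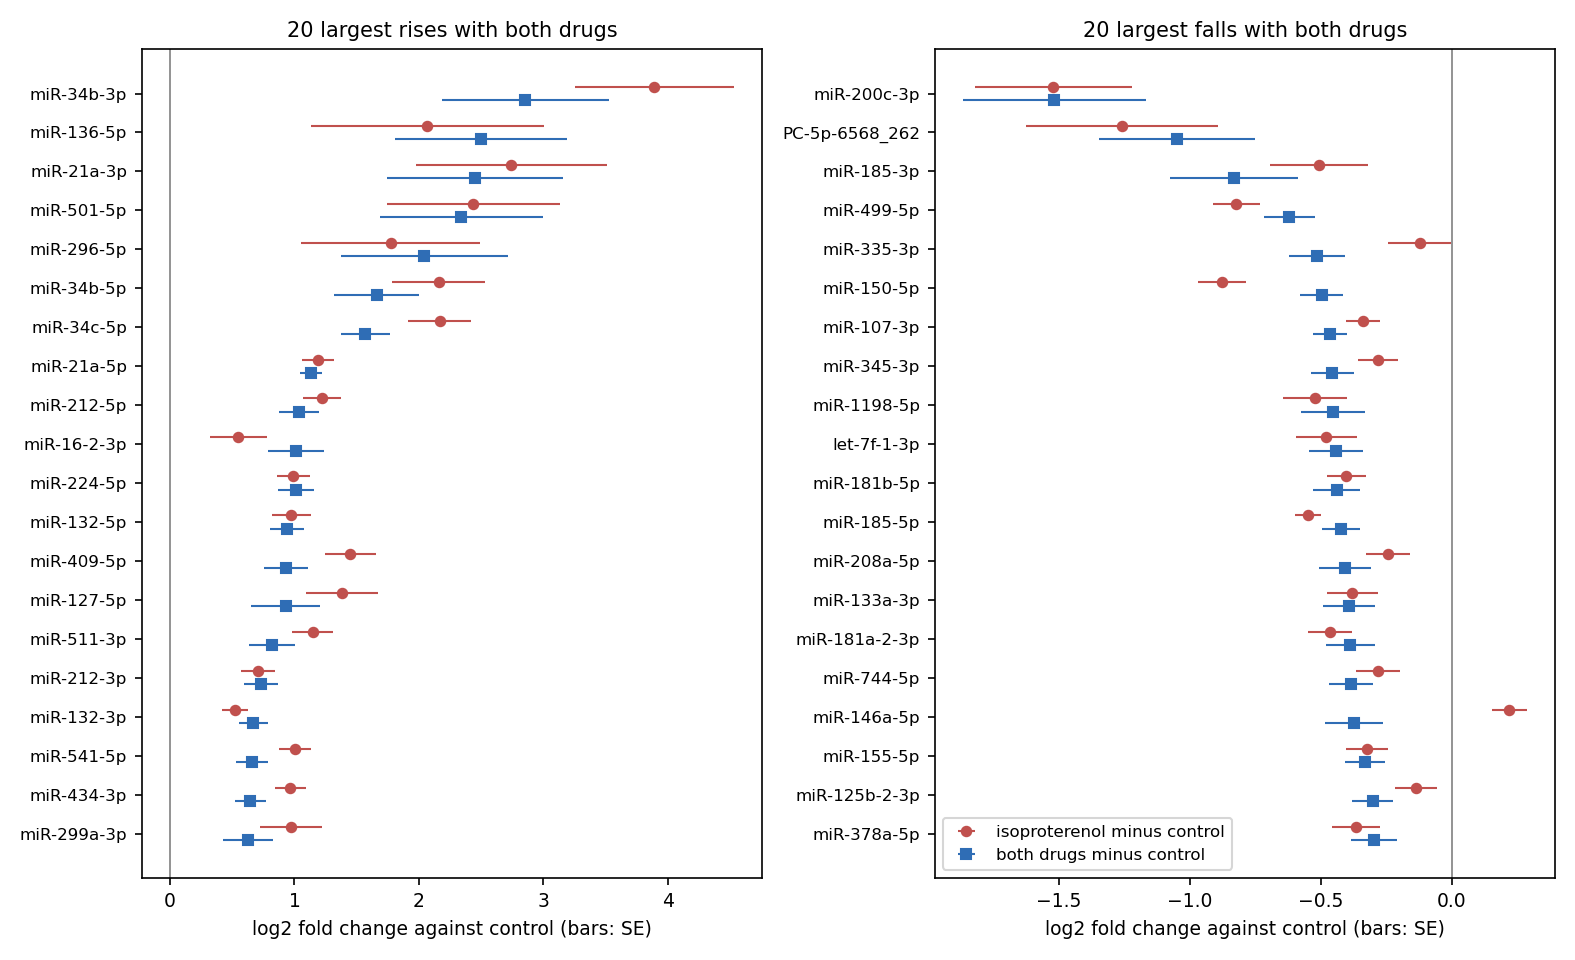
Log2 fold changes against control (horizontal axes, bars SE) of the 20 largest called rises and the 20 largest called falls with both drugs, with the isoproterenol change in circles and the both-drug change in squares; the 2 share the control libraries. MiR-21a-5p and the miR-132/miR-212 members have overlapping symbols, miR-34c-5p lies lower with both drugs, and miR-146a-5p stands on opposite sides of 0.

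Of the 28 falls, 4 were on the list of heart and striated muscle microRNAs, which holds 11 of the 371 tested entries. MiR-499-5p, whose host is the myosin gene Myh7b and which is made in cardiomyocytes, held 30305 to 41725 scaled reads in controls (median 38902) and 20206 to 29683 with both drugs (median 23985). The groups did not overlap and the fall was 1.54-fold (log2 -0.62 ± 0.10, adjusted p = 0.00053). It was also among the 3 falls still called after scaling to total reads (-0.42, adjusted p = 0.018), with miR-200c-3p and a predicted entry. MiR-133a-3p held 434569 to 593376 scaled reads in controls and 328618 to 411124 in 6 both-drug hearts, with 529899 in animal 957 (log2 -0.39 ± 0.10, adjusted p = 0.013). Its 5′ arm fell by 0.25 (SE 0.07, adjusted p = 0.025), a call that ended on leaving out any of 7 of the 13 libraries. MiR-208a-5p fell by 0.41 on the log2 scale (adjusted p = 0.011), while its other arm, miR-208a-3p, changed by -0.11 ± 0.15 (adjusted p = 0.65).

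MiR-1a-3p, the most abundant entry, did not pass: 3 controls (animals 940, 944 and 947) held 2719322 to 3228172 scaled reads and the other 3 held 1749272 to 1819263, where both-drug hearts ranged from 1547816 to 2268296 (log2 -0.36 ± 0.15, adjusted p = 0.11). Of 11 tested striated muscle entries, 4 fell (36.4%, against 7.55% of all entries) and none rose. Their median was -0.39, which moved to -0.19 with 1 fall when total reads set the scale. The list holds both arms of some hairpins, and its falls include both arms of miR-133a, so they are not all separate loci. The summed level of the 5 cardiomyocyte markers was 2298708 to 3789596 in controls and 1939180 to 2684202 with both drugs, so the ranges overlapped.

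The miR-378 group, whose founding member lies in an intron of the metabolic coactivator gene Ppargc1b, fell in 5 entries by 0.18 to 0.30 on the log2 scale. MiR-378a-3p went from 184527 to 243177 scaled reads in controls to 172432 to 190658 (log2 -0.23 ± 0.06, adjusted p = 0.015), and miR-378c fell by 0.28. Reads can be shared between these near-identical members, so their separate values are uncertain. The calls of miR-378a-5p, miR-378b and miR-378d ended when any of 7, 4 or 9 of the 13 libraries was left out, and miR-378d changed by 0.02 with total-read scaling. MiR-107-3p, whose host gene Pank1 acts in coenzyme A synthesis, was lower in every both-drug heart (1466 to 1806 scaled reads against 2094 to 2412; log2 -0.46 ± 0.06, adjusted p = 0.00027).

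Immune microRNAs did not move as 1 group. Among 5 tested white blood cell markers, miR-150-5p and miR-155-5p fell, miR-223-3p rose and miR-142a-3p and miR-342-3p changed by 0.03 each (adjusted p = 0.914 and 0.915). In shares, 20% rose and 40% fell, against 10.2% and 7.55% of all entries. MiR-150-5p, a microRNA of mature lymphocytes, held 3306 to 4017 scaled reads in controls (median 3582) and 2160 to 2960 with both drugs (median 2523), without overlap (log2 -0.50 ± 0.08, adjusted p = 0.00078). Its fall with isoproterenol alone was -0.88 ± 0.09, and both drugs lay 0.38 ± 0.10 above isoproterenol (unadjusted p = 0.0023, adjusted p = 0.21). MiR-155-5p, a promoter of inflammatory signalling, fell by 0.33 under either treatment, from 1021 to 1244 scaled reads to 774 to 997 with both drugs. MiR-223-3p of myeloid cells rose by 0.35 ± 0.10 (adjusted p = 0.025), which went to 0.056 without both-drug animal 953 (log2 0.31). The summed level of the white cell markers was 6148 to 7242 in controls and 4905 to 6599 with both drugs, and their part in the other results was not tested.

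The miR-146 pair had opposite signs. MiR-146a-5p, an NF-kB target that restrains that pathway, held 5036 to 5736 scaled reads in controls (median 5567). Isoproterenol hearts held 5309 to 6855 (median 6518) and both-drug hearts 3107 to 5651 (median 4278). It was called higher with isoproterenol (0.22 ± 0.07, adjusted p = 0.021) and lower with both drugs (-0.37 ± 0.11, adjusted p = 0.025). The difference between the 2 drug groups, -0.59 ± 0.12, was the only call in 371 entries between them (0.270%; adjusted p = 0.049), where an unadjusted p below 0.05 was reached by 13 entries that were higher and 32 that were lower. That margin is thin: the call was absent in 13 of 19 fits that left out 1 library and under 7 of 14 other settings, while the value stayed between -0.66 and -0.49 (adjusted p up to 0.197). The fall against control was lost without control animal 944, 947 or 956 or both-drug animal 939 or 946 (log2 -0.36 to -0.34). MiR-146b-5p rose with both drugs instead, from 231 to 317 scaled reads (median 294) to 332 to 519 (median 424), with no overlap (log2 0.57 ± 0.11, adjusted p = 0.0024). Of 10 tested entries on the list linked to NF-kB, 5 rose and 3 fell, against 10.2% and 7.55% of all entries, and none of the 3 falls was called with total-read scaling.

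MiR-200c-3p, which maintains epithelial character by repressing the Zeb factors, had the largest called fall. It held 39.9 to 91.0 scaled reads in controls, 9.4 to 33.7 under isoproterenol and 7.5 to 49.0 under both drugs (log2 -1.52 ± 0.35, adjusted p = 0.0072). The other 3 tested epithelial entries did not pass, miR-203-3p among them (log2 -0.03). MiR-185-5p, present at 7244 to 7651 scaled reads in controls, fell to 4743 to 6892 (log2 -0.42 ± 0.07, adjusted p = 0.00095). Its 3′ arm was called too, a call that ended on leaving out any of 3 of the 13 libraries. MiR-744-5p and miR-181b-5p fell by 0.39 and 0.44.

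Which changes persisted was asked by counting calls on the same entries, scale and threshold. Isoproterenol alone gave 78 higher (21.0%) and 53 lower (14.3%) against the same controls. Of the 78, 35 were called higher with both drugs as well, and of the 53, 24 were called lower. Another 42 higher and 29 lower were not called, and miR-146a-5p was called in the other direction. With total-read scaling, isoproterenol gave 83 calls in place of 131, and 53 rises and 3 falls were called under both treatments in place of 35 and 24. These comparisons share the 6 control libraries, so the counts describe the calls and are no independent support for each other. The 35 persisting rises had medians of 0.82 with isoproterenol and 0.62 with both drugs, and the 42 that were not called had 0.78 and 0.35. The 24 persisting falls had medians of -0.37 and -0.40, and the 29 others -0.30 and -0.18. These sets were formed by calls on the same values, so a smaller both-drug median in the uncalled sets is built in. All were picked by their isoproterenol call, so a larger isoproterenol median is partly built in too. A call missing with both drugs is not a shown difference, since only miR-146a-5p differed between the drug groups after adjustment.

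The entries called with isoproterenol and not with both drugs that had the smallest p between the drug groups were of several kinds. Members of the Dlk1-Dio3 cluster kept a positive value at a lower level: miR-494-3p went from 1.92 to 1.11, miR-434-5p from 1.02 to 0.51, miR-410-3p from 0.98 to 0.47, miR-411-3p from 1.03 to 0.59 and miR-329-5p from 1.08 to 0.56 (both drugs against isoproterenol, unadjusted p from 0.0048 to 0.029). Abundant entries of other loci sat near the control level. MiR-27b-3p held 92713 to 111093 scaled reads in controls, 118262 to 129188 under isoproterenol and 96897 to 118495 under both drugs. MiR-92a-3p held 6576 to 8175, 5789 to 6380 and 6003 to 8018, and miR-30a-3p changed by -0.21 with isoproterenol and -0.03 with both drugs. MiR-194-5p held 654 to 715 scaled reads with isoproterenol and 759 to 820 with both drugs, without overlap (limma, unadjusted p = 0.0052, adjusted p = 0.21). Control hearts held 818.5 to 1026.2, and its both-drug change of -0.19 had an adjusted p of 0.057 by limma. All entries of this paragraph were picked by their p between the drug groups, so such separation is partly built into the selection. MiR-335-5p changed by 0.33 with isoproterenol and by -0.16 ± 0.14 with both drugs.

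Calls with both drugs and not with isoproterenol were 6, and each had the same sign with isoproterenol. A call in only 1 of these comparisons is not a shown difference. MiR-335-3p, from the same hairpin as miR-335-5p, held 221.8 to 282.6 scaled reads in controls and 135 to 209 with both drugs (log2 -0.51 ± 0.11, adjusted p = 0.0036), against -0.12 ± 0.12 with isoproterenol. Its difference between the drug groups was -0.39 ± 0.13 (unadjusted p = 0.0086, adjusted p = 0.21). MiR-151-3p and miR-125b-2-3p fell by 0.24 and 0.30, the latter with an adjusted p of 0.054 without control animal 944 (log2 -0.24). MiR-16-2-3p rose by 1.01 ± 0.23, from 9.97 to 19.84 scaled reads to 19.46 to 39.05. MiR-136-5p and miR-296-5p rose from controls that held 0 in at least 1 library. Of the 38 rises, 5 had a control mean below 10 scaled reads (these 2, miR-501-5p, miR-34b-3p and miR-34b-5p), and such entries passed the read minimum through the treated hearts, so their rise is partly built into the selection and their fold depends on the added count of 1.

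**Figure D3:**
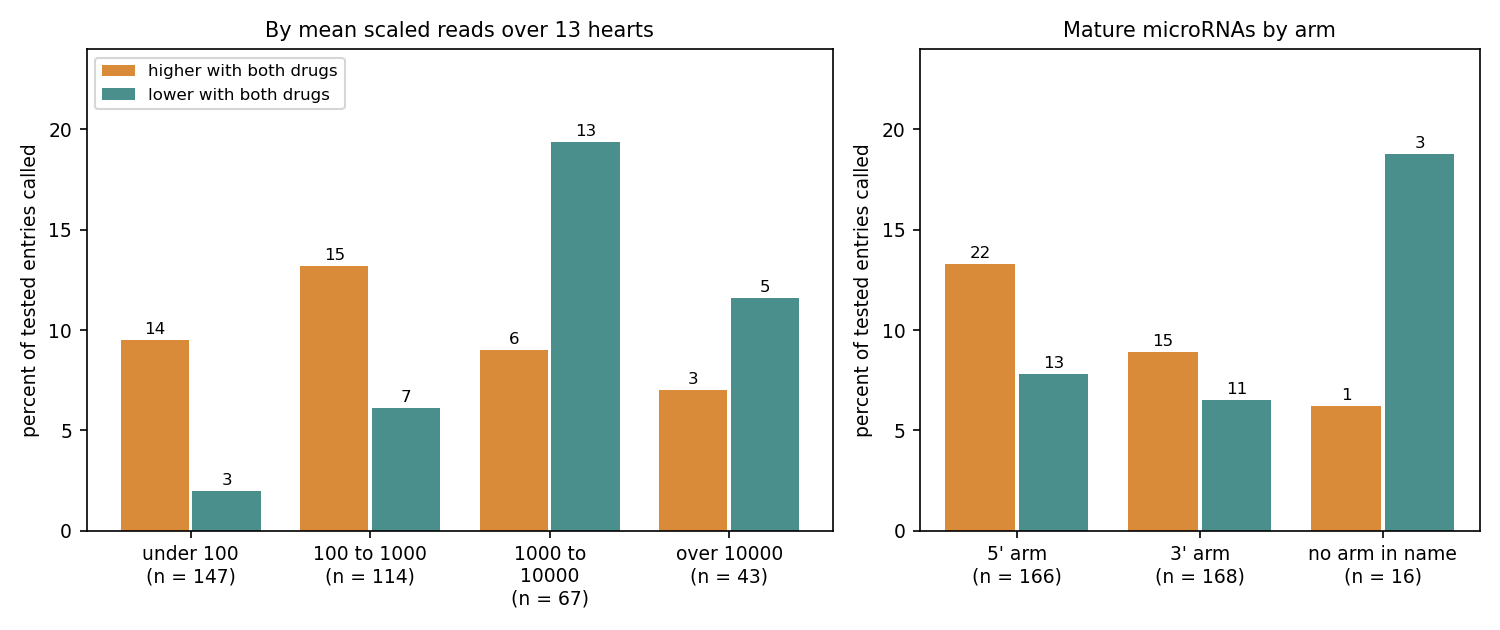
Percent of tested entries called higher or lower with both drugs (vertical axes) by mean scaled reads over the 13 hearts and by arm of the mature microRNA, with the number called above each bar. Rises outnumber falls at 14 to 3 under 100 reads and falls outnumber rises at 13 to 6 between 1000 and 10000.

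By abundance, the share of entries that rose stayed near the 10.2% of all entries, and the share that fell was above 7.55% in the classes over 1000 reads. Under 100 mean scaled reads, 14 of 147 entries rose (9.5%) and 3 fell (2.0%), and between 100 and 1000, 15 of 114 rose (13.2%) and 7 fell (6.1%). In the class from 1000 to 10000, 6 of 67 rose (9.0%) and 13 fell (19.4%). Over 10000 reads, 3 of 43 rose (7.0%; miR-21a-5p, miR-23a-3p and miR-24-3p) and 5 fell (11.6%). The standard error moved with abundance, with a median of 0.30 in the lowest class and 0.08 in the highest, so a small change could be called only in abundant entries. Among entries called with isoproterenol, 14 of 38 persisted in the lowest class, then 20 of 38, 17 of 39 and 8 of 16. Entries that rose made up 1.94% of mean scaled reads in controls and 3.41% with both drugs, and entries that fell 15.98% and 14.51%.

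By arm, 22 of 166 tested 5′ arms rose (13.3%) and 13 fell (7.8%), and 15 of 168 3′ arms rose (8.9%) and 11 fell (6.5%), all near the 10.2% and 7.55% of all entries. Of the isoproterenol calls, 32 of 60 persisted on 5′ arms (53.3%) and 22 of 62 on 3′ arms (35.5%), against 59 of 131 over all entries (45%). The difference between the arms was not tested. Both arms were tested for 122 hairpins. The arms had the same sign in 96 of the 122. In 11 of the 122 both arms were called, and always in the same direction: miR-21a, miR-24-2, miR-34b, miR-127, miR-132, miR-212 and miR-455 rose in both arms, and miR-133a, miR-151, miR-185 and miR-378a fell in both. For miR-21a, miR-24-2, miR-127, miR-133a, miR-185 and miR-378a, at least 1 arm lost its call in a fit that left out 1 library. In 23 hairpins 1 arm was called, the more abundant in 13 and the rarer in 10. The other arm had the opposite sign in 3 of them, miR-16-2, miR-125b-2 and miR-139, where the more abundant strand of the first 2 (miR-16-5p and miR-125b-5p) is also made from other hairpins. Of the predicted entries, 1 of 11 was called (lower), and of those from other precursor parts 0 of 10 by limma.

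**Figure D4:**
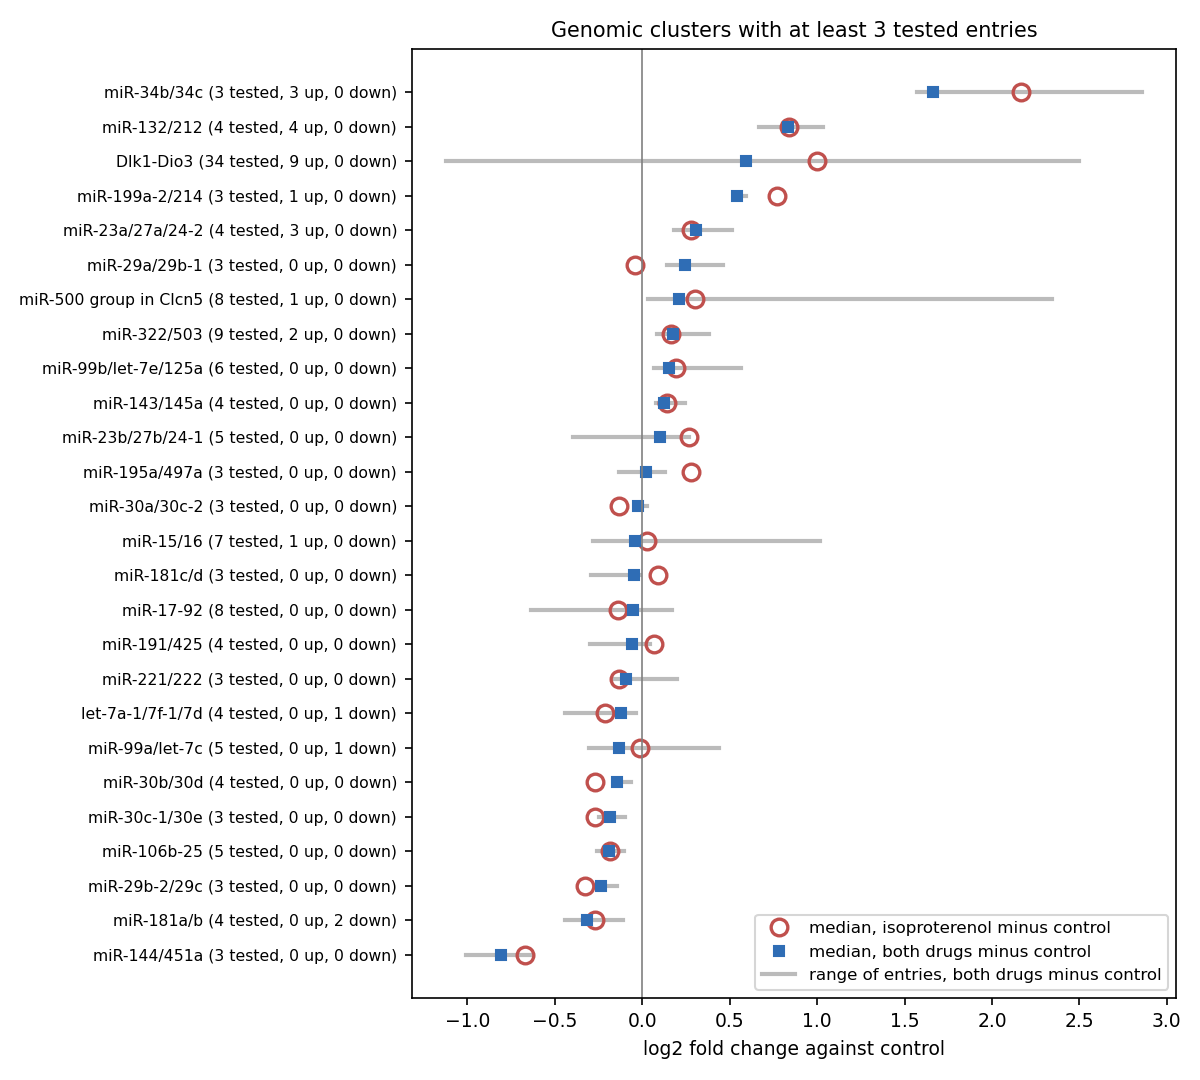
Median log2 fold change against control (horizontal axis) of the tested entries of each genomic cluster with at least 3 of them, for isoproterenol (open circles) and both drugs (squares), with the range of entries for both drugs as grey lines; labels give entries tested and called with both drugs. The miR-132/miR-212 medians coincide at 0.84, and the Dlk1-Dio3 median is 0.999 with isoproterenol and 0.59 with both drugs.

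By genomic position, 135 tested entries lay in 31 groups of hairpins spaced at most 10 kb apart on 1 strand. Of these groups 12 held a call and none held calls in both directions. Over all entries 17.8% were called, and each group has at least 2 tested hairpins. Many groups held only 1 call and could not show both directions, and miR-24-3p and miR-181b-5p each count in 2 groups. The counts therefore do not show agreement within groups. Listed clusters can differ from these groups, and miR-34b/34c is a listed cluster only. Beside it and miR-132/miR-212, the miR-23a/27a/24-2 cluster gave 3 rises in 4 listed entries (75%, against 10.2% of all entries). These were miR-23a-3p (0.32), miR-27a-5p (0.51) and miR-24-2-5p (0.30). MiR-24-2-5p did not overlap with controls (1558 to 1769 scaled reads against 1964 to 2346), while the other 2 calls were each lost with 8 of the 13 libraries left out in turn. Only 1 of the 4 was called without control 944 or 947 or both-drug 952, 953 or 957. The related cluster on another chromosome, miR-23b/27b/24-1, gave none in 5 listed entries. Neither list holds miR-24-3p, which both loci encode and which was called (0.20). Grouped by position, with miR-24-3p in both, miR-23a/27a/24-2 gave 4 rises in 5 and miR-23b/27b/24-1 gave 1 in 5. The miR-322/miR-503 cluster on the X chromosome, of the miR-15 family's cell cycle regulators, gave 2 rises in 9 (22.2%, against 10.2% of all entries). These were miR-322-5p (0.38 ± 0.10) and miR-351-5p (0.31 ± 0.09), with 1 rise without control 950 or both-drug 953 or 955. Grouped by position, without miR-351-5p, it gave 1 rise in 8 (12.5%), near the share of all entries. All 9 of its entries had positive values.

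The miR-181a/b pair gave 2 falls in 4 entries (50%, against 7.55% of all entries), miR-181b-5p and miR-181a-2-3p. The more abundant miR-181a-5p, with the seed of miR-181b-5p, changed by -0.11 ± 0.07 (adjusted p = 0.29 by limma). Seed families were otherwise mixed. Of 6 entries with the miR-15/16 seed AGCAGCA only miR-322-5p was called, and of 9 let-7 entries with the seed GAGGUAG none was. The 7 tested miR-29 entries hold both arms, and only 3 of them (the 3′ arms) have the seed AGCACCA of the strands known to repress collagens. Of these 7 and of the 11 miR-30 entries, also of both arms, none was called by limma with both drugs, with medians of 0.09 and -0.10. With total reads the medians were 0.28 and 0.10 with 1 rise in each family, and the miR-29 median was -0.01 without both-drug animal 957. Under isoproterenol 3 and 4 of these had been lower. MiR-29b-3p held 409 to 557 scaled reads in controls and 407 to 742 with both drugs, and miR-30e-3p changed by -0.18 ± 0.06 (adjusted p = 0.056).

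The Dlk1-Dio3 cluster, an imprinted region whose microRNAs are expressed from the maternal chromosome, gave the largest number of calls of any locus. Of 34 tested entries, 9 rose with both drugs (26.5%, against 10.2% of all entries) and none fell, and 28 rose with isoproterenol, against 21.0% of all entries. Of those 28, 8 persisted (28.6%, against 45% of all isoproterenol calls), and the ninth both-drug rise, miR-136-5p, was no isoproterenol call. The 9 were miR-434-3p, miR-409-5p, miR-541-5p, miR-379-5p, miR-411-5p, miR-136-5p, miR-127-3p, miR-127-5p and miR-299a-3p. All but 1 entry (miR-1247-5p) had positive values against control. With both drugs, 33 of 34 lay lower than with isoproterenol, against 201 of all 371 entries. Medians were 0.999, 0.591 and -0.448 for isoproterenol, both drugs and their difference, against 0.023, 0.025 and -0.024 over all entries. None of the 34 differences between the drug groups passed adjustment. The entries lie in 1 cluster, so these counts are not independent. Some could pass the read minimum through the isoproterenol hearts, so lower both-drug values may be partly built into the selection. With scaling over the 13 libraries alone, 30 entries were tested, and all 30 were positive against control (median 0.607). The count of 9 was 18 with total-read scaling, 5 without both-drug animal 953 or 955 and 14 without control animal 949.

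MiR-434-3p held 140.7 to 202.6 scaled reads in controls (median 178), 247 to 390 under isoproterenol (median 357) and 219 to 353 under both drugs (median 259). The control and both-drug ranges did not meet (log2 0.64 ± 0.12, adjusted p = 0.0024), and both drugs lay 0.32 ± 0.13 below isoproterenol (unadjusted p = 0.026). MiR-409-5p held 16.9 to 27.7, 37.6 to 78.0 and 34.4 to 54.5 in the same order (log2 against control 0.93 ± 0.18, adjusted p = 0.0022). MiR-127-3p, which lies antisense to the retrotransposon-like gene Rtl1, held 853 to 1343 and 1120 to 1507 in controls and with both drugs. Its call (0.39 ± 0.11, adjusted p = 0.025) was lost without control animal 944 or 950 or both-drug animal 953 or 955 (log2 0.35 to 0.37, adjusted p up to 0.056).

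Along the chromosome, the 33 entries that could be placed form 2 blocks and 1 distant entry. The first, 9 entries within 9.5 kb, had a both-drug median of 0.61 with 4 calls, and the second, 23 entries from 123.2 to 157.9 kb further on, had 0.59 with 5 calls. The isoproterenol medians of the blocks were 0.97 and 1.01. MiR-1247-5p, 692.3 kb from the first hairpin, changed by -1.12 and was not called. As a mean over the 34 entries, the cluster's log2 level relative to controls was 0.68 ± 0.24 under both drugs (SD, n = 7), with a range of 0.39 to 1.05. It was 1.14 ± 0.27 under isoproterenol (SD, n = 6), from 0.86 to 1.54, and controls ranged from -0.27 to 0.48. Both-drug hearts thus lay between the other groups with overlap on both sides.

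**Figure D5:**
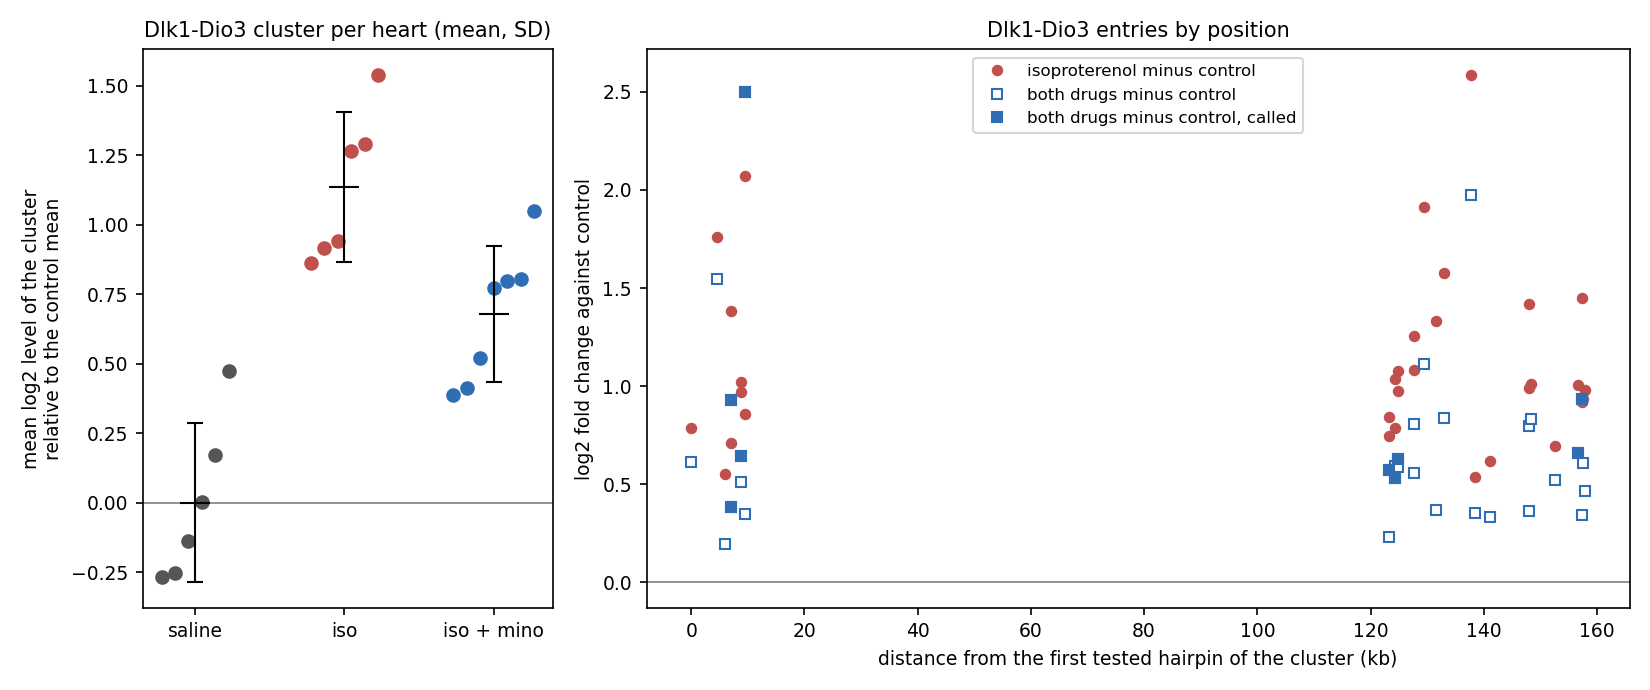
Left, mean log2 level of the 34 Dlk1-Dio3 entries in each heart relative to the control mean (vertical axis), with group mean and SD. Right, log2 fold changes against control (vertical axis) by distance in kb from the first tested hairpin, circles for isoproterenol and squares for both drugs, filled where called; miR-1247-5p, at 692.3 kb, is not drawn. Hearts with both drugs range from 0.39 to 1.05 and overlap both controls (up to 0.48) and isoproterenol hearts (from 0.86).

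Markers of other cell types were looked at beside these results. The 6 red blood cell entries had no call by limma and a median of -0.45, and their summed level was 27159 to 34021 scaled reads in controls and 22932 to 33188 with both drugs. MiR-451a varied widely within groups, 1084 to 4954 in controls and 730 to 4446 with both drugs (adjusted p = 0.28). The endothelial miR-126a-3p changed by -0.07 ± 0.05 (132711 to 149889 against 127642 to 146299), and the 4 smooth muscle entries had a median of 0.12 and no call. None of the 2 neuronal and 3 liver entries tested was called. With the log2 level of miR-451a in the fit, 35 entries rose and 30 fell, of which 32 and 27 were among the calls above.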

How the data were processed

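The members, lists and clusters were chosen with earlier results of these data known. Per the labels' protocols, RNA was extracted with a Qiagen miRNeasy kit, and the LC Sciences program ACGT101-miR filtered the reads. Mapper, genome build and normalization: not given in the sources used here. The deposited tables hold, per the file headers, raw read counts for each entry, written with commas, and normalized reads, a score that is the count times 1 factor per library. The score served only 1 alternative. Because the comma format was not accepted as counts, a test for normalized values replaced a count model.

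The joined entries were scaled over all 19 libraries by the trimmed mean of M values (0.3 of ratios and 0.05 of levels trimmed), and entries with at least 10 scaled reads in at least 6 libraries were tested. Each pair of groups was fitted with limma 3.58.1 (R 4.3.3, trended empirical Bayes) on log2(scaled reads + 1), with Benjamini-Hochberg adjustment over 371 entries and calls at an adjusted p below 0.05. Isoproterenol reads were identical in both tables (0 differ), entries in 1 table only held at most 22 reads, and no 2 libraries of a group agreed within sampling noise. The procedure was tested on simulated data.

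Named microRNAs are the 10 largest and 10 most abundant calls in each direction, up to 10 isoproterenol calls not called with both drugs (smallest p between drug groups), calls with both drugs only, a fixed heart and blood set, and members of lists and clusters. Other risers, the miR-34a-5p value and the hairpin pairs beyond these were named after their values were seen. Alternatives changed scaling, read minimum, added count, model, joined entries and libraries.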

Additional observations from a re-analysis of the deposited data

Results flagged for a closer look

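A heart was noted where its distance to the nearest heart of its group was large for the group's whole range, and 18 of 261 groups of hearts over the named entries met this, where chance gives about 1 in 20.
MiR-24-2-5p stood at 2442.6 scaled reads in isoproterenol animal 948 (others 1960.9 to 2024.7) and at 2345.8 in both-drug animal 957 (others 1964.5 to 2123.8). The value of miR-181b-5p in both-drug animal 942 was 1171.1 (others 841.6 to 949.4). For let-7f-1-3p, control animal 956 held 200.3 (others 156.4 to 168.1) and both-drug animal 953 held 94.7 (others 119.9 to 134.2). Both-drug animal 957 was also the highest of its group for miR-208a-5p at 1491 (others 997.8 to 1154), for miR-133a-3p at 529899.4 (others 328618.5 to 411124.3) and for miR-29b-3p at 742.5 (others 407.2 to 548). Control animal 944 held 1117.7 of miR-125b-2-3p (others 856.7 to 944.9). The predicted entry PC-5p-6568_262 reached 33.5 in both-drug animal 939 (others 9.1 to 19.5), which also held 56.4 of miR-208b-3p (others 7.5 to 26.5). In both-drug animal 942, miR-133a-5p was at 6136.9 (others 4616.8 to 5062.3). Isoproterenol animal 948 was the lowest of its group for miR-146a-5p at 5309.1 (others 6477.6 to 6855.3) and for miR-486b-5p at 16023 (others 21037.9 to 23837.9). MiR-194-5p reached 1026.2 in control animal 949 (others 818.5 to 891.6), and miR-410-3p reached 31.4 in control animal 956 (others 10 to 17.9). MiR-29b-3p was lowest in isoproterenol animal 951, at 323.6 (others 445.6 to 518.7). MiR-451a reached 4446.2 in both-drug animal 953 (others 730 to 2118.8).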

How the results depend on the processing

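Of the 66 calls against control, 46 kept their call with each of 13 libraries left out in turn where tested, and 20 lost it at least once. Leaving out 1 library of the 19 gave 28 to 50 rises, 21 to 39 falls, 27 to 41 persisting rises and 16 to 31 persisting falls. Without both-drug animals 953 and 957, the shallowest libraries, 28 rose and 23 fell, and without 942 and 957, 44 rose and 36 fell; both were chosen after seeing the data. With total-read scaling there were 73 rises and 3 falls, of which 53 and 3 were isoproterenol calls too, and isoproterenol itself gave 83 calls (82 with the miR-451a level in the fit) in place of 131. Between the drug groups the count was 0 with median-of-ratios scaling, total-read scaling, no read minimum, an added count of 0.5, an exact rank-sum test and both removals of 2 libraries, and 0 to 1 with 1 library left out; the main count was 1, and an unadjusted p below 0.05 was reached by 13 higher and 32 lower entries. With total-read scaling the sign of the both-drug change turned for miR-126a-3p (0.131), miR-181a-5p (0.090), miR-194-5p (0.010), miR-208a-3p (0.089), miR-30a-3p (0.167), miR-30e-3p (0.015), miR-335-5p (0.038), miR-378d (0.018), miR-486b-5p (0.042) and miR-92a-3p (0.150). With 1 library left out, miR-208b-3p ranged from -0.437 (without control 940) to 0.673, miR-29b-3p from -0.008 (without both-drug 957) to 0.151, and miR-30a-3p from -0.068 to 0.007 (without control 947). MiR-29b-3p was at -0.007 without both-drug 942 and 957, and miR-30a-3p at 0.009 without 953 and 957. The cause was not tested. No paired analysis was possible because the groups share no replicate number. Depth limits entries under 100 reads, where only large changes could be called.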
